A study of Mus musculus with 20 samples.

Results

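Lymph nodes draining the 3 parts of the small intestine were compared with the node draining the cecum and colon. The comparison set 16 of the 20 libraries of the study against each other: 12 small intestinal libraries, which are 4 each from duodenal, jejunal and ileal nodes, against 4 ceco-colonic libraries. The remaining libraries entered it only through the filter, the scaling and the shared estimate of the spread. The 3 sites were averaged with equal weight, and attention was on genes for which each of them differed from the ceco-colonic node in 1 direction. Of 29411 genes tested, 1704 met this in its strict form: they were called in the mean comparison and again at each of the 3 sites, always with the same sign. A gene was called when its Benjamini-Hochberg adjusted p in edgeR's quasi-likelihood test was under 0.05, and all adjusted p given here come from that test.

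Each gut segment sends its lymph, with migrating dendritic cells, absorbed molecules and microbial products, to nodes of its own in the mesentery. A node is built on reticular fibroblasts, blood and lymphatic endothelium, and macrophages that line its sinuses, and these cells remain when lymphocytes are missing. Hox genes mark position along the body axis in mesenchymal cells. Retinoic acid is made from vitamin A, and ligands of the aryl hydrocarbon receptor reach gut nodes from food and microbes.

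All mice were Rag1-/- (B6.129S7-Rag1tm1Mom/J) and 9 weeks old. They lack mature T and B cells, the mutation is in every group, and no wild type was analysed. Polyadenylated RNA of whole nodes was sequenced, with 4 libraries for each of 5 positions, the fifth being the skin-draining inguinal node, which serves as a reference draining skin. Whether the 4 libraries at each position came from separate animals is not stated, so p-values measure the spread between these libraries only.

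Depth was 171.1 to 304.6 M estimated counts per gut library, and 1 CPM is 1 count per M. Rag1, the mutated gene, had 2.43 ± 0.304 CPM in small intestinal and 2.7 ± 0.366 CPM in ceco-colonic nodes (mean ± SD, n = 12 and 4), which checks no label because the count covers the whole gene. Genes that define a lymph node were present in every gut library: Ccl21a, a chemokine of the T-cell zone, stood at 1170 to 3960 CPM over the 16 libraries, and Glycam1, a ligand made by high endothelial venules, at 68.1 to 424 CPM. Libraries differed in what else they held. Summed over 14 adipocyte genes, the level ran from 94.7 to 2710 CPM (median 803) in small intestinal and from 91.2 to 409 CPM (median 255) in ceco-colonic libraries. None of these genes was at 0 in the mean of either group. Jejunal library 2 was the highest. Of the list, 3 of 14 genes were called higher and 0 lower (8.9% and 7.74% of all genes tested), Cfd and Plin1 among them. Summed over 10 mesothelium genes, the 12 small intestinal libraries had 27.6 to 41 CPM and the 4 ceco-colonic ones 14.5 to 15.8 CPM, without overlap. Within that list Gpm6a, Rspo1 and Wt1 were called higher, whereas Msln (1.01 against 1.18 CPM) and Upk3b (0.719 against 0.229 CPM) were not called. The fitted log2 fold change of Upk3b, which averages the sites on the log scale, was -0.206, opposite in direction to its mean CPM. Pancreatic enzyme genes reached 47600 CPM in duodenal library 1 and 26200 CPM in duodenal library 2, against 10.1 to 135 CPM in the other gut libraries. Smooth muscle genes summed to 1750 and 1760 CPM in duodenal libraries 2 and 3, against 562 to 769 CPM in the other small intestinal and 738 to 791 CPM in the ceco-colonic libraries. In bulk samples fewer cells of a type and less RNA per cell cannot be told apart.

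**Figure D1:**
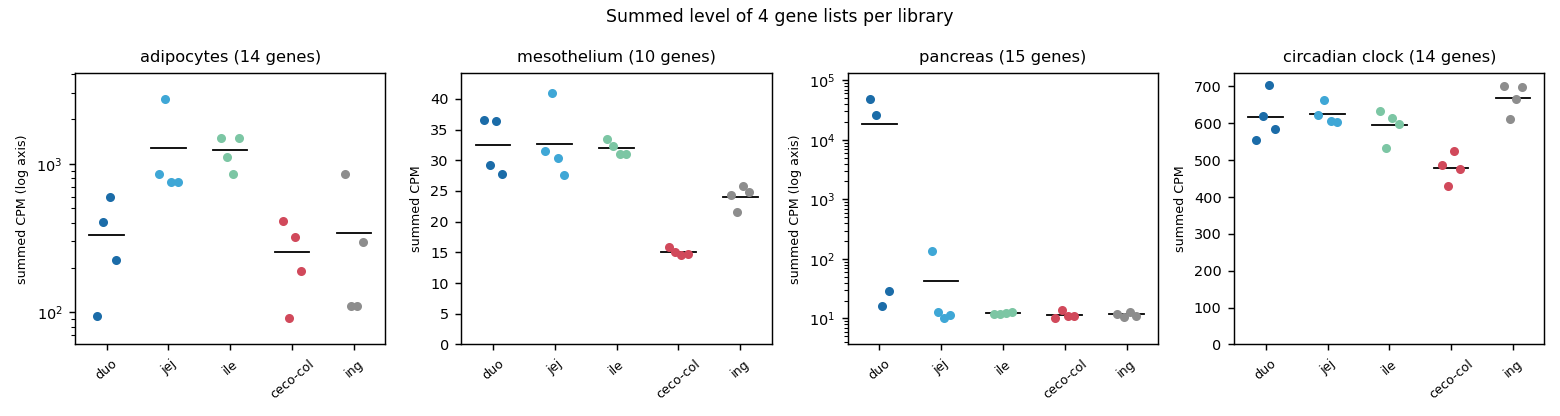
Summed level in CPM of 4 gene lists in each library, with 1 point per library, a bar for the mean of a position, and log axes for adipocytes and pancreas. Adipocyte genes reach 2710 CPM in jejunal library 2, mesothelium genes are at 27.6 to 41 CPM in small intestinal and 14.5 to 15.8 CPM in ceco-colonic nodes, and 2 duodenal libraries hold pancreatic RNA.

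Of the 29411 genes, 4894 (16.6%) were called, 2618 higher (8.9%) and 2276 lower (7.74%) in small intestinal nodes. Nearly all of these had 1 sign at the 3 sites, 2554 higher (8.68%) and 2238 lower (7.61%). Each site on its own had 4825 called genes in duodenal (16.4%; 8.24% higher, 8.17% lower), 3586 in jejunal (12.2%; 7.14% and 5.06%) and 3750 in ileal nodes (12.8%; 7.43% and 5.32%). Called or not, 57.2% of genes had 1 sign at the 3 sites. These 3 comparisons share the ceco-colonic libraries. The strict form held for 907 genes higher (3.08% of genes tested) and 797 lower (2.71%), of which 321 and 230 differed by at least 2-fold. For 2.97% of genes all 12 small intestinal libraries were above the 4 ceco-colonic ones, and for 3.21% all were below. The median log2 fold change of all genes was 0.00638. Just inside the strict form lay Pgrmc2 and Sntg2, whose largest adjusted p at a site was 0.05 after rounding, and just outside it lay Dtnb and Slc14a1 at 0.0503. When the summed adipocyte level was added to the fit, 460 genes higher and 356 lower met the strict form, of which 782 were in the first set with the same sign. After rounding, 100% of the genes called in the main comparison kept their sign in that fit. Without duodenal libraries 1 and 2, 1561 genes met it, 1383 of them in the first set.

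**Figure D2:**
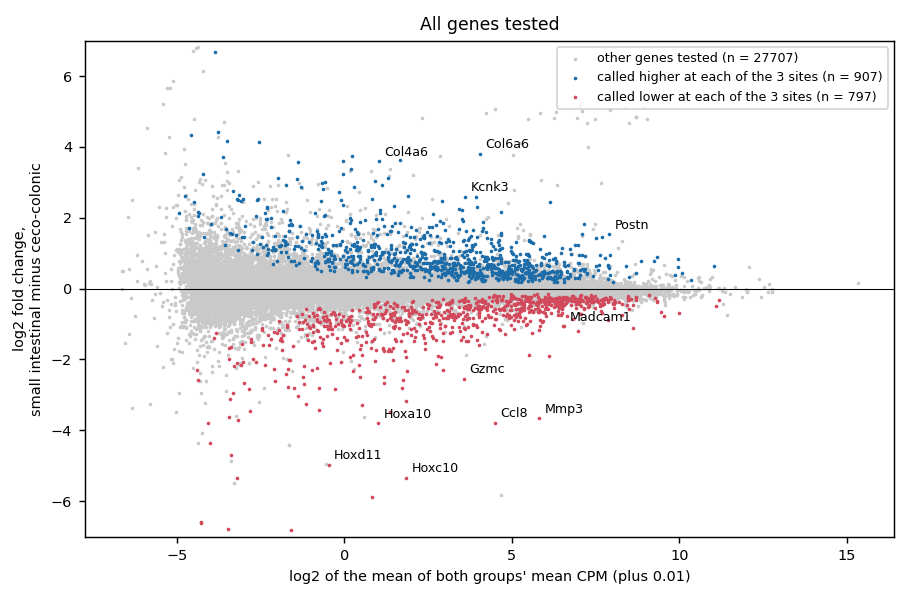
Log2 fold change of small intestinal minus ceco-colonic nodes (vertical axis) against the log2 mean level in CPM (horizontal axis) for the 29411 genes tested. Blue points are the 907 genes called higher and red points the 797 called lower at each of the 3 sites, and 2 points lie outside the axis.

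Genes with the largest differences upward under the rule for named genes had varied roles. That rule took only genes called at each site without overlap of the 12 and 4 libraries, so their separation was fixed by the choice. Col6a6, an alpha chain of type VI collagen, had 20.7, 30.1 and 47.1 CPM as the lowest, median and highest of the 12 small intestinal libraries, against 2.48, 1.77, 2.42 and 1.98 CPM in the 4 ceco-colonic ones. The groups were far apart, with a log2 fold change of 3.81 ± 0.19 (SE, adjusted p = 5.67e-11). In the inguinal node Col6a6 was at 38 ± 2.49 CPM, near the small intestinal level, so it was the ceco-colonic node that stood apart. Kcnk3, a background potassium channel, had 14.9, 21.1 and 28.5 CPM against 4.45, 2.28, 3.6 and 3.47 CPM. Its log2 fold change was 2.60 ± 0.19 (adjusted p = 1.11e-08), and the inguinal node had 5.62 ± 1.34 CPM. Clec4g, a C-type lectin of sinusoidal endothelium, had 17.4, 26.8 and 32.7 CPM against 6.84, 4.69, 5.39 and 3.76 CPM, a log2 fold change of 2.30 ± 0.14 (adjusted p = 1.03e-09). As the rule required, no small intestinal library of these 3 genes fell within the ceco-colonic range.

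Gpc3, a proteoglycan of the cell surface, stood at 33.9, 39.8 and 58.8 CPM in small intestinal libraries and at 10.5, 8.23, 10.6 and 8.09 CPM in ceco-colonic ones (log2 fold change 2.17 ± 0.17, adjusted p = 2.59e-08). Glp2r, the receptor of the intestinal growth hormone GLP-2, was at 6.14, 9.81 and 16.4 CPM against 1.71, 2.06, 2.31 and 2.95 CPM (2.12 ± 0.15, adjusted p = 8.23e-09). Both were lowest in the inguinal node, at 4.69 ± 1.62 and 0.6 ± 0.112 CPM. Cyp4b1, a cytochrome P450, had 125, 227 and 300 CPM against 69, 56.5, 71.6 and 46.1 CPM (1.84 ± 0.13, adjusted p = 5.78e-09). Efemp1, a fibulin of the elastic matrix, Gnai1, an inhibitory G protein subunit, and Rnf128, a ubiquitin ligase, had log2 fold changes of 2.26, 2.23 and 1.92. Kirrel3, an adhesion molecule, was higher by 1.75 on the log2 scale, with its highest level in the inguinal node (10 ± 0.695 CPM). The groups did not overlap for any of these 7 genes, as the rule required. Agt, angiotensinogen, and Cyp2e1, a further cytochrome P450, had log2 fold changes of 2.60 ± 0.45 (adjusted p = 0.000278) and 2.44 ± 0.50 (adjusted p = 0.00151). Both were highest in jejunal library 2, which also had the highest adipocyte level. Among small intestinal libraries, Col6a6, Kcnk3, Clec4g, Gpc3, Efemp1, Gnai1 and Cyp4b1 were highest in that library too. Glp2r was lowest there, and Rnf128 and Kirrel3 were highest in duodenal libraries. Agt ran from 1.83 to 18.3 CPM and Cyp2e1 from 50.2 to 297 CPM in small intestinal libraries. Whether any of these genes followed the adipocyte level over the libraries was not tested. With the adipocyte level in the fit the log2 fold changes of Agt and Cyp2e1 were 1.56 (adjusted p = 0.000443) and 1.37 (adjusted p = 0.000193). In the same fit Penk, the enkephalin precursor (1.90 ± 0.40, adjusted p = 0.00203), was no longer called (1.08, adjusted p = 0.0766).

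Genes with the largest differences downward were as varied, and the Hox genes and Irx1 among them are described further on. The same rule chose them, so their lack of overlap was fixed by the choice too. Ccl8, a chemokine that attracts monocytes and other leukocytes, had 1.69, 2.79 and 6.24 CPM in small intestinal libraries against 42.3, 52.1, 22.4 and 49.5 CPM in ceco-colonic ones. The lowest ceco-colonic library was above every small intestinal one, and the log2 fold change was -3.79 ± 0.19 (adjusted p = 5.99e-11). The inguinal node had more still, 242 ± 39.2 CPM. Mmp3, the stromelysin that cuts matrix proteins, had 4.59, 7.72 and 26.4 CPM against 102, 141, 73.7 and 96.8 CPM (-3.66 ± 0.25, adjusted p = 4.36e-09). Here the ceco-colonic node was highest of the 5 positions, the inguinal one having 25.5 ± 7.16 CPM. P4ha3, a subunit of collagen prolyl hydroxylase, had 0.415, 0.836 and 1.43 CPM against 6.25, 5.48, 5.46 and 5.68 CPM (-2.82 ± 0.17, adjusted p = 5.51e-10), and was at 0.58 ± 0.153 CPM in the inguinal node. Ceco-colonic nodes thus had the top level of P4ha3 by a margin that no other library approached.

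Gzmc, a granzyme of cytotoxic cells, had 1.98, 3.42 and 5.88 CPM in small intestinal and 23.2, 21.2, 14.8 and 20.9 CPM in ceco-colonic libraries (-2.54 ± 0.12, adjusted p = 3.13e-11). Tnfsf4, the ligand of the costimulatory receptor OX40, had 1.07, 2.57 and 4.61 CPM against 15, 13.5, 9.31 and 12.2 CPM (-2.30 ± 0.16, adjusted p = 5.78e-09). Il12b, the subunit shared by interleukins 12 and 23, had 23.4, 28.1 and 40.5 CPM against 118, 124, 86.3 and 102 CPM (-1.89 ± 0.11, adjusted p = 5.31e-10). For all 3 the groups did not overlap, as the rule required. Tnfsf4 and Il12b had lower inguinal than ceco-colonic means (2.85 ± 0.29 and 48.9 ± 7.79 CPM). Col24a1, a minor fibrillar collagen, Inpp5j, a phosphoinositide phosphatase, and Pla2g5, a secreted phospholipase, were lower by 2.33, 2.13 and 1.94 on the log2 scale. Nxph1, a neurexin ligand, Syt13, a synaptotagmin, and Cemip, which degrades hyaluronan, were lower by 1.91, 1.58 and 1.49. Their lack of overlap was again part of the rule.

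**Figure D3:**
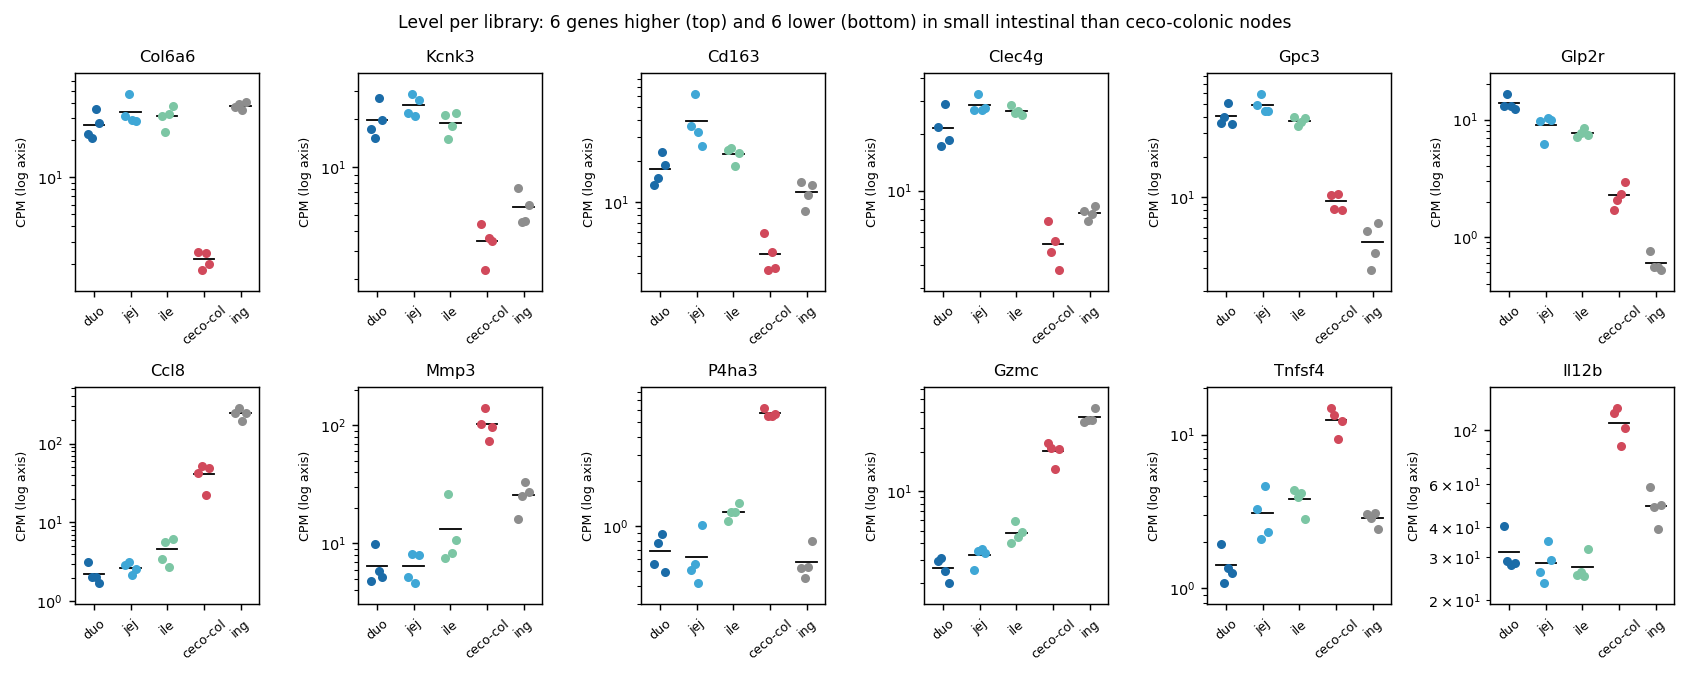
Level in CPM (log axes) of 6 genes higher and 6 lower in small intestinal than in ceco-colonic nodes, with 1 point per library and a bar for the mean of each position. The ceco-colonic points of Col6a6 lie between 1.77 and 2.48 CPM below all others, and those of P4ha3 between 5.46 and 6.25 CPM above all others.

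Posterior Hox genes, those at the tail end of the 4 clusters, were low in small intestinal nodes. Of 16, 9 passed the filter on low counts, and all 9 were called lower, 6 of them at each of the 3 sites, against 7.74% and 2.71% of all genes. A member near 0 in small intestinal nodes could pass the filter only through a position that expressed it. Hoxc10 had 0, 0.134 and 1.54 CPM in small intestinal libraries against 6.7, 7.4, 6.42 and 6.4 CPM in ceco-colonic ones, a log2 fold change of -5.34 ± 0.28 (adjusted p = 1.2e-10). Hoxa10 had 0.071, 0.29 and 0.759 CPM against 3.63, 4.47, 3.3 and 3.33 CPM (-3.79 ± 0.13, adjusted p = 2.73e-13). Hoxd11 had 0.0127, 0.0437 and 0.0722 CPM against 1.25, 1.78, 1.63 and 0.885 CPM (-4.98 ± 0.24, adjusted p = 5.46e-11). In the inguinal node Hoxd11 was as low as in small intestinal nodes (0.0529 ± 0.0302 CPM), whereas Hoxc10 was at 6.78 ± 0.371 CPM there.

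Levels of several of these genes stepped along the gut. Hoxa9 was at 0.293 to 0.456 CPM in the duodenal node, 0.914 to 1.31 CPM in the jejunal, 1.66 to 2.04 CPM in the ileal and 4.92 to 6.03 CPM in the ceco-colonic libraries, so no 2 positions overlapped. Hoxc9 likewise had 0.535 to 0.754, 1.44 to 1.7, 2.54 to 3.77 and 4.95 to 5.44 CPM. The test of a difference among the 3 small intestinal sites, which uses no ceco-colonic contrast, gave adjusted p = 5.69e-07 for Hoxa9 and 8.92e-09 for Hoxc9. Hoxa10 and Hoxc10 had the same order of means (0.0969, 0.299, 0.632 and 3.68 CPM; 0.0236, 0.154, 1.17 and 6.73 CPM), with adjusted p of 1.3e-06 and 4.7e-06 among the 3 sites. For Hoxd11 this test did not pass (adjusted p = 0.451). Hoxa11 was counted at 0 in every jejunal library, at up to 0.0516 CPM in the other small intestinal ones and at 0.0892 to 0.261 CPM in ceco-colonic ones. Hoxb9, Hoxd9 and Hoxd10 differed less, by -0.49, -0.43 and -0.42 on the log2 scale. For Hoxd9 the ileal mean (16.2 CPM) lay beside the ceco-colonic one (16.5 CPM), and for Hoxd10 it lay above (3.83 against 3.59 CPM). The call for Hoxd10 (adjusted p = 0.0341) was lost in 11 of 27 other settings.

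**Figure D4:**
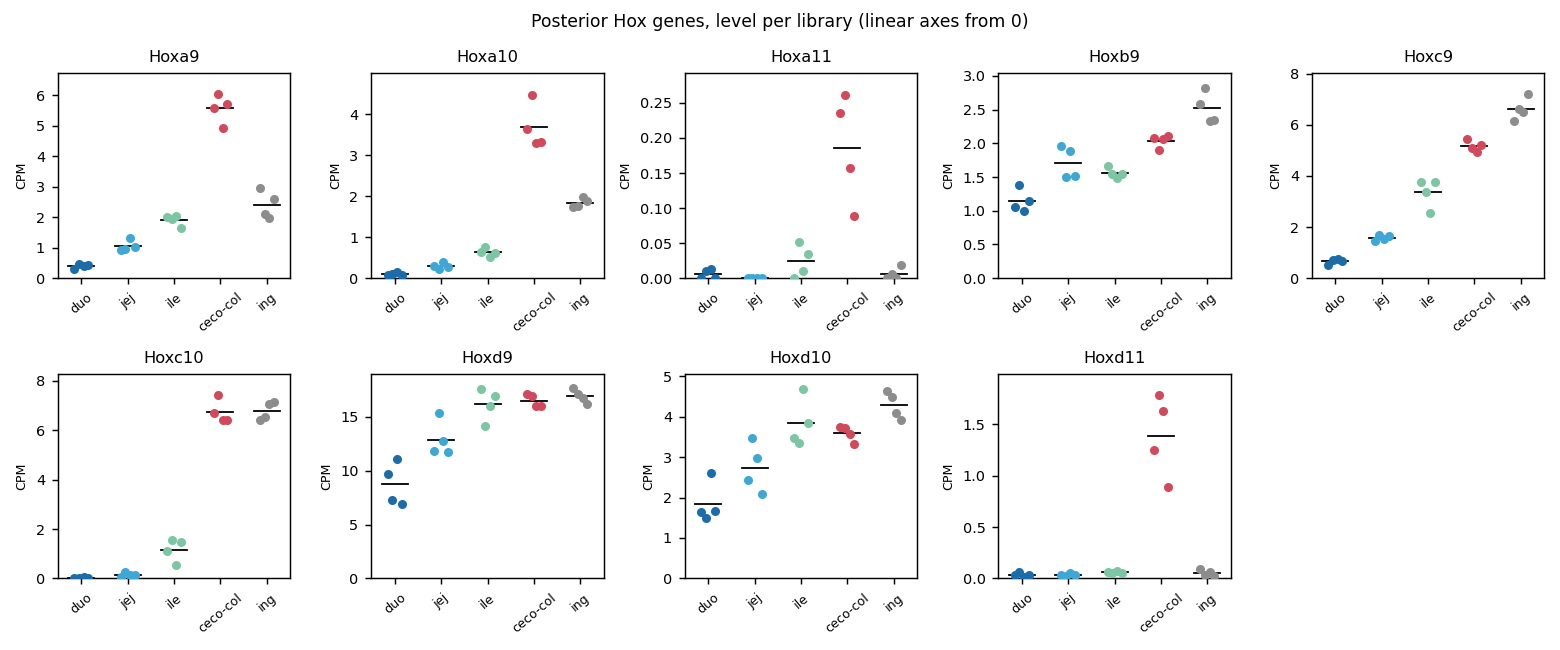
Level in CPM (linear axes from 0) of the 9 posterior Hox genes tested, with 1 point per library and a bar for the mean of each position. Hoxa9 and Hoxc9 step up from duodenal to ceco-colonic nodes without overlap, while Hoxd11 is near 0 everywhere but in the ceco-colonic node.

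Anterior and central Hox genes went both ways, with 9 of 22 called higher and 5 lower and a median log2 fold change of 0.01. The counts of this and all later lists stand beside 8.9% of all genes called higher and 7.74% lower. Hoxc4 (6.07 to 8.74 against 4.19 to 5.53 CPM) and Hoxb7 (7.03 to 10.3 against 5.4 to 6.78 CPM) were higher at each site without overlap. Hoxc8 was higher in the mean by 0.70 and had 1 sign at the 3 sites, but was not called in duodenal nodes (7.52 against 6.48 CPM, adjusted p = 0.199). Of 28 other regional factors of mesenchyme, 11 were called higher and 6 lower, and with the adipocyte level in the fit 6 were higher. Gata4, a factor of anterior visceral mesenchyme and endoderm, had 3.04, 5.4 and 6.99 CPM against 2.4, 2.36, 2.3 and 2.11 CPM (1.24 ± 0.12, adjusted p = 2.66e-07). Its relative Gata6 was at 20.5 to 31.9 CPM against 14.8 to 20.1 CPM (0.67 ± 0.11, adjusted p = 0.000123). Meis2, a cofactor of Hox proteins, was higher by 0.70. Isl1 and Hand2, factors of visceral mesenchyme and of autonomic neurons, were higher by 3.09 ± 0.51 and 2.36 ± 0.36 (adjusted p = 0.000193 and 7.82e-05), most of all in duodenal nodes (1.4 CPM against 0.0569 CPM, and 3.05 against 0.274 CPM). Genes of glia and neurons were high in some duodenal libraries too, summing to 214 CPM in duodenal libraries 2 and 3 against 111 to 167 CPM in the other small intestinal and 136 to 151 CPM in the ceco-colonic libraries, with 5 of 10 called higher and 1 lower (1 higher with the adipocyte level in the fit). Their part in the Isl1 and Hand2 values was not tested.

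Tbx18, a factor of mesenchymal and pericyte lineages, and Irx1, an Iroquois homeobox gene, were low in small intestinal nodes. Tbx18 had 0.272, 0.43 and 1.44 CPM against 1.67, 1.81, 1.73 and 2.04 CPM (-1.88 ± 0.20, adjusted p = 9.17e-07), and the inguinal node had 7.2 ± 0.738 CPM. Irx1 had 0.242, 0.686 and 1.94 CPM against 6.08, 5.38, 7.65 and 6.2 CPM (-3.19 ± 0.18, adjusted p = 2.17e-10), with 4.97 ± 0.46 CPM in the inguinal node. Nkx2-3, which is needed for vessels and stroma of gut lymphoid tissue, was not called: 18.1, 22.5 and 24 CPM against 22.9, 22.1, 21.6 and 22.1 CPM (-0.03 ± 0.09, adjusted p = 0.901).

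Retinoid genes differed in part. Of 19 tested, 8 were called higher and 4 lower, 4 higher at each site, with a median log2 fold change of 0.21. Among all genes 8.9% were higher, 7.74% lower and 3.08% higher at each site. With the adipocyte level in the fit 5 were higher and 2 lower. Among the enzymes that make retinoic acid, Aldh1a1 had 11.6, 16.1 and 36.9 CPM in small intestinal and 5.67, 3.26, 5.36 and 4.03 CPM in ceco-colonic libraries (1.96 ± 0.23, adjusted p = 4e-06). Aldh1a2 was not called (128, 175 and 274 against 167, 170, 153 and 187 CPM, adjusted p = 0.822). Per transcript length Aldh1a2 was the more abundant of the pair, at 113 against 15.3 TPM in small intestinal nodes. Of the genes that store or reduce retinoids, Dhrs3, a retinal reductase, was at 65.5 to 97.9 against 41.1 to 47.2 CPM (0.87 ± 0.08, adjusted p = 2.13e-07). Lrat, which esterifies retinol, was higher by 0.82 ± 0.16 (adjusted p = 0.000851), with site means of 19.6, 17.4 and 11.8 CPM from duodenal to ileal nodes against 9.04 CPM. Stra6, a retinol transporter, was lower (4.42 to 9.61 against 11.7 to 13.5 CPM, -0.69 ± 0.16, adjusted p = 0.00547), a call lost with the adipocyte level in the fit (adjusted p = 0.221). Cyp26b1, which breaks retinoic acid down, was not called (36 ± 15.8 against 23.3 ± 6.65 CPM, adjusted p = 0.17). Rarb, a retinoic acid receptor whose own gene is a classic target of retinoic acid, had 1.82, 2.78 and 3.81 CPM against 1.48, 0.844, 1.81 and 1.52 CPM (0.93 ± 0.18, adjusted p = 0.000984), a separation by a narrow gap.

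The promoter of Rarb is shown because it holds a repeat of the kind that retinoic acid receptors bind. The 250 bases before its start site lie at chr14:16575477-16575726 on the minus strand (RefSeq, GRCm38.p6), upstream of the annotated transcript start, and capitals mark the match, GTTCA and AGTTCA with 5 bases between them, which begins 52 bases before the start.
Rarb: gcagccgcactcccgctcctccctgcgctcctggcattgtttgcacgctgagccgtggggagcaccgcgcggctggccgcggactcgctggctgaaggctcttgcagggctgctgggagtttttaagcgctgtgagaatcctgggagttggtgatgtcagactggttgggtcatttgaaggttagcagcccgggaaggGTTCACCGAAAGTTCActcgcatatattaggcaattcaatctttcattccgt
Searched on both strands in windows from 250 bases before to 50 after the start, this motif was found in 11 of 32851 promoters (0.0335%). Promoters were at hand for 16 of the 20 listed retinoid genes, and those of Rarb and Cyp26a1 held it. Apart from the 5 free bases, the letters searched are those of the Rarb repeat, with no alternative allowed at any of them. Rarb is shown because it holds them, so its match was fixed in advance. The share is therefore no measure of how rare such a match is. A match is a description of the letters.

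The aryl hydrocarbon receptor senses dietary and microbial indoles and pollutants. Its list holds targets and also the receptor Ahr and its partner Arnt. Of 8 listed genes tested, 4 were higher in small intestinal nodes and 0 lower, against 8.9% and 7.74% of all genes. At each site 3 were higher. Cyp1b1, the abundant one, had 173, 275 and 339 CPM against 108, 97.4, 98 and 89.9 CPM (1.42 ± 0.09, adjusted p = 3.04e-09), and the inguinal node had 185 ± 10.8 CPM. Cyp1a1, the most inducible target in many tissues, had 0.619, 1.17 and 2.7 CPM against 0.432, 0.624, 0.237 and 0.357 CPM (1.62 ± 0.22, adjusted p = 2.61e-05), and 1 ceco-colonic library reached the lowest small intestinal one. Cyp1a1 peaked in jejunal nodes (2.21 CPM, against 1.1 in duodenal and 0.811 in ileal nodes, adjusted p = 0.00198 among the 3). Nqo1, a quinone reductase, was at 4.4 to 7.74 against 3.19 to 3.69 CPM (0.79 ± 0.10, adjusted p = 6.06e-06). The fourth called gene was the receptor Ahr itself, a call lost with the adipocyte level in the fit (adjusted p = 0.0595), which left 3 higher. The other 4 were not called.

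Both cytochrome promoters are shown with the core of the xenobiotic response element, GCGTG, in capitals. The Cyp1a1 window is chr9:57697363-57697612 on the plus strand and the Cyp1b1 window chr17:79715062-79715311 on the minus strand (RefSeq, GRCm38.p6), each the 250 bases before the start site and so upstream of the transcript.
Cyp1a1: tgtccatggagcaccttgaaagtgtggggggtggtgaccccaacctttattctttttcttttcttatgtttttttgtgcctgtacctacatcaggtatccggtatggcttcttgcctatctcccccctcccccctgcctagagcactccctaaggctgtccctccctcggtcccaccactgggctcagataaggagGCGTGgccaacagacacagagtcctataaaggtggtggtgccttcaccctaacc
Cyp1b1: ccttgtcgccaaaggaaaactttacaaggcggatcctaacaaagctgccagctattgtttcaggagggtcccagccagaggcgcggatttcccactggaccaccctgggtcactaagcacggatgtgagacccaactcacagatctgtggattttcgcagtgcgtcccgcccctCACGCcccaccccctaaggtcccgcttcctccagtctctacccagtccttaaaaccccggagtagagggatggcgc
Each held 1 match, 54 and 76 bases before the start, that of Cyp1b1 on the other strand and so printed as CACGC. The motif is short and common: 10639 of 32851 promoters (32.4%) held it on either strand. So did 5 of the 7 listed genes with a promoter at hand, Arnt among them. Nothing follows from these letters about binding.

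Of 10 T-zone reticular fibroblast genes, 6 were called lower and 0 higher, against 7.74% and 8.9% of all genes. Their median log2 fold change was -0.52. Grem1, a BMP antagonist of fibroblasts around the T zone, had 45.8, 79.1 and 96 CPM against 193, 192, 164 and 155 CPM (-1.19 ± 0.13, adjusted p = 2.18e-06). Tnfsf13b, the B-cell survival factor BAFF, was at 32.8 to 51.2 against 66.8 to 88.3 CPM (-0.90 ± 0.08, adjusted p = 4.68e-08). The chemokines Ccl19 (203 to 401 against 412 to 522 CPM) and Ccl21a (1170 to 2740 against 3230 to 3960 CPM) were lower by 0.59 and 0.74 on the log2 scale without overlap. Bst1, a surface enzyme of stroma, was lower by 0.60. With the adipocyte level in the fit Ccl19, Ccl21a and Bst1 were no longer called (adjusted p = 0.0963, 0.18 and 0.0721), and 2 of the 10 genes were. Among follicular and marginal reticular genes, Cxcl13, which attracts B cells, had 4.68, 18.4 and 49.1 CPM against 53.5, 83.5, 65.6 and 77.7 CPM (-1.87 ± 0.22, adjusted p = 3.43e-06). Madcam1, the addressin for gut-homing leukocytes, had 33.3, 58.1 and 103 CPM against 120, 144, 137 and 110 CPM (-1.06 ± 0.14, adjusted p = 1.68e-05). For Madcam1 all gut nodes were above the inguinal one, at 3.77 ± 0.231 CPM. Sox9, a factor of cartilage and progenitor cells, was higher (1.39 ± 0.508 against 0.513 ± 0.0972 CPM).

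Medullary reticular genes were called in part, with 5 of 14 called higher and 1 lower, against 8.9% and 7.74% of all genes. Cxcl14 was at 13.2 to 24.4 against 5.73 to 8.72 CPM (1.43 ± 0.18, adjusted p = 7.74e-06), and at 0.564 ± 0.22 CPM in the inguinal node. Inmt, a methyltransferase, was at 119 to 208 against 47.5 to 93.7 CPM (1.25 ± 0.17, adjusted p = 2.45e-05). Apod, a lipocalin, was at 11.6 to 35.6 against 7.29 to 10.3 CPM (1.20 ± 0.14, adjusted p = 5.21e-06). Il33, an alarmin of these fibroblasts, was not called (316 ± 44.5 against 307 ± 27.2 CPM, adjusted p = 0.849).

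Matrix genes differed chain by chain. Of 18 collagen chains, 6 were called higher and 3 lower (8.9% and 7.74% of all genes), and the median was 0.02. Beside Col6a6, the paired basement membrane chains Col4a5 (7.66, 9.57 and 28.8 against 2.85, 2.05, 2.1 and 1.82 CPM) and Col4a6 (1.52, 2.43 and 12.4 against 0.384, 0.22, 0.295 and 0.171 CPM) were higher by 2.48 ± 0.30 and 3.60 ± 0.46 (adjusted p = 4.84e-06 and 1.09e-05). Their duodenal means, 17.6 and 6.59 CPM, rested on libraries 2 and 3, with 24.4 and 28.8 CPM of Col4a5 and 9.48 and 12.4 CPM of Col4a6. Duodenal libraries 1 and 4 had 7.66 and 9.49 CPM of Col4a5 and 1.98 and 2.46 CPM of Col4a6. Libraries 2 and 3 are also those with 1750 and 1760 CPM of smooth muscle genes, against 562 and 769 CPM in libraries 1 and 4, and the part of that RNA in the result was not tested. With the adipocyte level in the fit they stood at 1.80 and 2.59 and were still called. Of 16 adventitial and matrix fibroblast genes, 7 were called higher and 0 lower. Postn, periostin, was the clearest, at 303, 357 and 416 CPM against 130, 120, 118 and 125 CPM (1.54 ± 0.08, adjusted p = 1.88e-10). Dcn, the small proteoglycan decorin, was at 1090 to 1440 against 725 to 858 CPM (0.61 ± 0.07, adjusted p = 4.84e-06). Dpt, dermatopontin, was higher by 0.61.

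Of 20 modulators of Wnt and BMP signalling, 11 were called higher and 2 lower (8.9% and 7.74% of all genes), with a median of 0.59. Rspo3, which amplifies Wnt signals and is made by stroma, had 7.41, 11 and 15.2 CPM against 4.41, 4.37, 4.13 and 4.07 CPM (1.30 ± 0.09, adjusted p = 4.09e-09). Its level went down from duodenal (12.8 CPM) through jejunal (10.9) to ileal nodes (8.12), with adjusted p = 0.00144 among the 3. Rspo1, which mesothelium also makes, was at 7.28 to 11.5 against 3.4 to 4.89 CPM (1.07 ± 0.13, adjusted p = 6.66e-06), and Sfrp1, a secreted Wnt antagonist, at 28.9 to 46 against 14.9 to 18.2 CPM (1.15 ± 0.11, adjusted p = 2.74e-07). Bmp5 went the other way, at 0.437 to 1.59 against 3.08 to 3.7 CPM (-1.72 ± 0.15, adjusted p = 7.36e-08). With the adipocyte level in the fit 8 of the 20 were called higher.

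Genes of lymphatic and sinus endothelium were mostly higher in small intestinal nodes, with 10 of 15 called higher, 3 lower and a median of 0.62. Among all genes 8.9% were called higher and 7.74% lower. Lyve1, the hyaluronan receptor of lymphatic vessels, had 149, 317 and 405 CPM against 124, 109, 125 and 73.9 CPM (1.44 ± 0.16, adjusted p = 2.02e-06). Duodenal nodes were lowest of the 3 sites, at 190 CPM against 358 in jejunal and 371 in ileal nodes (adjusted p = 0.00372). Flt4, the VEGF-C receptor, had 83.7, 153 and 198 CPM against 68.4, 62.6, 81.1 and 52.1 CPM (1.13 ± 0.14, adjusted p = 7.07e-06), and Reln, reelin, 27.3, 37.5 and 53 CPM against 14.9, 10.3, 16.3 and 11 CPM (1.51 ± 0.19, adjusted p = 1.01e-05). The scavenger receptor Stab2 was higher by 0.96 ± 0.11. Prox1, the master factor of lymphatic identity, was higher by 0.81 ± 0.13 in the mean (adjusted p = 0.000115), with a duodenal mean of 45.8 CPM against 35.8 CPM. The 3 lower genes were Ccl21a, Madcam1 and Pdpn, which fibroblasts also express, and 1 was lower with the adipocyte level in the fit. Of 12 genes of blood endothelium, 5 were called higher and 1 lower. Cldn5, a tight junction claudin, was at 82.9, 144 and 219 against 82.1, 69.7, 71.3 and 63.7 CPM (0.97 ± 0.11, adjusted p = 1.93e-06), and Kdr, the main VEGF receptor, was higher by 0.67 ± 0.08.

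High endothelial venule genes were mostly not called, with 1 of 11 called higher and 3 lower (0 lower with the adipocyte level in the fit). The higher count is near the 8.9% of all genes called higher, and 7.74% were called lower. St3gal6, a sialyltransferase, was at 42.3 to 51.9 against 31.1 to 33.5 CPM (0.51 ± 0.05, adjusted p = 5.07e-07). Chst2, a sulfotransferase for selectin ligands, was lower by 0.50, a call lost with the adipocyte level in the fit (adjusted p = 0.0853). Glycam1 was not called (249 ± 140 against 213 ± 38.8 CPM, adjusted p = 0.928), but differed among the 3 sites, with means of 401, 225 and 121 CPM from duodenal to ileal nodes (adjusted p = 0.00578).

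Chemokines were called lower more often than higher. Of 29 tested, 13 were called lower and 3 higher, 9 and 2 of them at each site, with a median of -0.30. Among all genes 7.74% were called lower and 8.9% higher, 2.71% and 3.08% at each site. Beside Ccl8 and Cxcl13, Cx3cl1, fractalkine, had 23.8, 27.6 and 37.1 CPM against 64.9, 65.7, 73.6 and 69.2 CPM (-1.25 ± 0.06, adjusted p = 3.93e-11). Ccl12, a monocyte chemokine, was at 3.91 to 11.4 against 17.1 to 22.9 CPM (-1.49 ± 0.14, adjusted p = 2.19e-07), and Ccl17, made by migratory dendritic cells, at 10.5 to 21.3 against 25.9 to 38.2 CPM (-1.16 ± 0.17, adjusted p = 3.66e-05). Ccl20, the ligand of CCR6, was lower in the mean by 2.28 ± 0.25 on the log2 scale (adjusted p = 1.97e-06), and its ileal libraries (0.787 to 1.24 CPM) reached the lowest ceco-colonic one (1.14 to 2.56 CPM). Besides Cxcl14, Cxcl5, a ligand of the neutrophil receptor CXCR2, was higher at each site, at 3.61 to 6.14 against 0.922 to 1.49 CPM (1.86 ± 0.20, adjusted p = 1.15e-06). Of 16 chemokine receptors, 6 were lower and 2 higher, and with the adipocyte level in the fit 3 were lower. Ccr2, carried by monocytes, was at 78.1 to 113 against 134 to 191 CPM (-0.73 ± 0.09, adjusted p = 3.64e-06), and Cxcr2 at 8.36 to 16.6 against 20.1 to 30 CPM (-0.83 ± 0.10, adjusted p = 5.79e-06).

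Macrophage genes moved apart. Cd163, the hemoglobin scavenger receptor, had 13.4, 23.6 and 62.1 CPM against 5.91, 3.14, 4.3 and 3.26 CPM (2.59 ± 0.24, adjusted p = 1.65e-07), with the top in jejunal nodes (39.2 CPM, adjusted p = 0.0107 among the 3). Marco, a scavenger receptor of medullary macrophages that sinus endothelium also carries, was at 707 to 1720 against 605 to 809 CPM (0.85 ± 0.11, adjusted p = 1.32e-05). Msr1, another scavenger receptor, was higher by 0.77 ± 0.10. Lower were Folr2, a folate receptor (4.07 to 13.6 against 14.3 to 16.6 CPM, -1.04 ± 0.13, adjusted p = 8.11e-06), Timd4, a receptor for dying cells (23.2 to 42.6 against 37.4 to 52.5 CPM, -0.60 ± 0.12, adjusted p = 0.00109), and Trem2, a lipid receptor (6.13 to 12.8 against 17.5 to 20 CPM, -0.99 ± 0.10, adjusted p = 7.69e-07). Of 16 resident macrophage genes, 6 were called higher and 2, Folr2 and Timd4, lower, against 8.9% and 7.74% of all genes. Trem2 and Msr1 belong to a list of lipid uptake and export, of whose 16 genes 6 were higher and 3 lower, and with the adipocyte level in the fit 3 and 2. In the complement system 6 of 17 genes were higher and 2 lower, beside the same 8.9% and 7.74%. C2, a component of the classical pathway, was higher by 0.53 ± 0.06 (adjusted p = 5.17e-06), and Cfi, the protease that cleaves C3b, was at 2.77 to 4.92 against 6.94 to 8.64 CPM (-0.97 ± 0.13, adjusted p = 1.75e-05).

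Dendritic cell genes were called lower more often than higher. For migratory dendritic cells 5 of 10 were lower and 0 higher (7.74% and 8.9% of all genes), led by Il12b and Ccl17. For type 2 dendritic cells 5 of 10 were lower and 1 higher, and 3 were lower with the adipocyte level in the fit. Irf4, the factor they depend on, was at 22.3 to 32.9 against 43.5 to 52.1 CPM (-0.81 ± 0.07, adjusted p = 1.63e-07), and Clec10a, a lectin, at 21.4 to 35.2 against 50.9 to 56 CPM (-0.92 ± 0.09, adjusted p = 3.76e-07). Epcam, an adhesion molecule of some migratory and epithelial cells, was the higher one, by 0.74 ± 0.07. For type 1 dendritic cells the count was 2 higher and 2 lower of 10. Clec9a, their receptor for dead cells, was at 101 to 147 against 61.7 to 76.9 CPM (0.76 ± 0.09, adjusted p = 4.8e-06), while Itgae, the CD103 integrin chain, was at 40.5 to 55.3 against 68.5 to 84.7 CPM (-0.67 ± 0.07, adjusted p = 8.71e-07). Of 10 genes of class II presentation, 2 were lower: Ciita, its master regulator, by 0.32 and H2-DMb2 by 0.38 on the log2 scale. The H2-DMb2 call was lost with the adipocyte level in the fit (adjusted p = 0.0584).

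Genes of type 2 innate lymphoid cells and their signals were higher for 5 of 11 and lower for 1, with a median of 0.35. Among all genes 8.9% were called higher and 7.74% lower. Il17rb, the interleukin 25 receptor, was at 51.9 to 83.7 against 23.6 to 29.2 CPM (1.33 ± 0.11, adjusted p = 4.16e-08), and Il1rl1, the interleukin 33 receptor, at 24.3 to 42 against 12 to 17.1 CPM (1.11 ± 0.13, adjusted p = 3.43e-06). Of 11 genes of type 3 cells, 4 were lower, 1 higher and 6 not called, with a median of -0.02, near that of all genes. Tnfsf4, which dendritic cells express too, had the largest difference of the lower ones. Il22 was near 0 in duodenal libraries (0.0212 to 0.34 CPM) and at 1.29 to 3.96 CPM in ileal and 1.36 to 3.15 CPM in ceco-colonic ones. Its call (adjusted p = 0.039) was lost in 13 of 27 other settings. Leaving out ceco-colonic library 1 or 2 left 1 or 2 of the type 3 genes called lower, and with the adipocyte level in the fit 1 was lower and 2 higher. Natural killer genes were lower for 5 of 12 and higher for 0, with a median of -0.25. Eomes, their maturation factor, was at 25.6 to 39.9 against 41.1 to 49.1 CPM (-0.44 ± 0.07, adjusted p = 0.00013), and Prf1, perforin, was lower by 0.44. Without ceco-colonic library 2 the natural killer count was 2, and with the adipocyte level in the fit it was 1, with Prf1 no longer called (adjusted p = 0.152).

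Eosinophil genes were low in small intestinal nodes. Of 9 listed, 7 passed the filter on low counts, and these 7 were called lower, 5 at each site, where 7.74% and 2.71% of all genes were. The other 2, Epx and Ear1, were too low to be tested. The 4 genes named below were at 0.505 CPM or more in every small intestinal library too. The list was chosen with earlier results of these data known, so the count is a description. Prg2, the major basic protein of their granules, had 0.674, 1.06 and 2.43 CPM against 4.94, 3.82, 3.08 and 3.24 CPM (-1.75 ± 0.18, adjusted p = 6.54e-07). Siglecf, a surface lectin, was at 0.737 to 1.56 against 1.97 to 3.63 CPM (-1.43 ± 0.18, adjusted p = 8.21e-06), Ccr3, the eotaxin receptor, at 0.505 to 2.55 against 2.6 to 5.47 CPM (-1.77 ± 0.28, adjusted p = 0.000146), and Alox15, a lipoxygenase, at 2.26 to 6 against 6.83 to 9.91 CPM (-1.32 ± 0.17, adjusted p = 8e-06). None of the 4 overlapped between groups, where 3.21% of all genes lay wholly below. They were named for small adjusted p within their lists, so this separation was in part fixed by the choice.

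**Figure D5:**
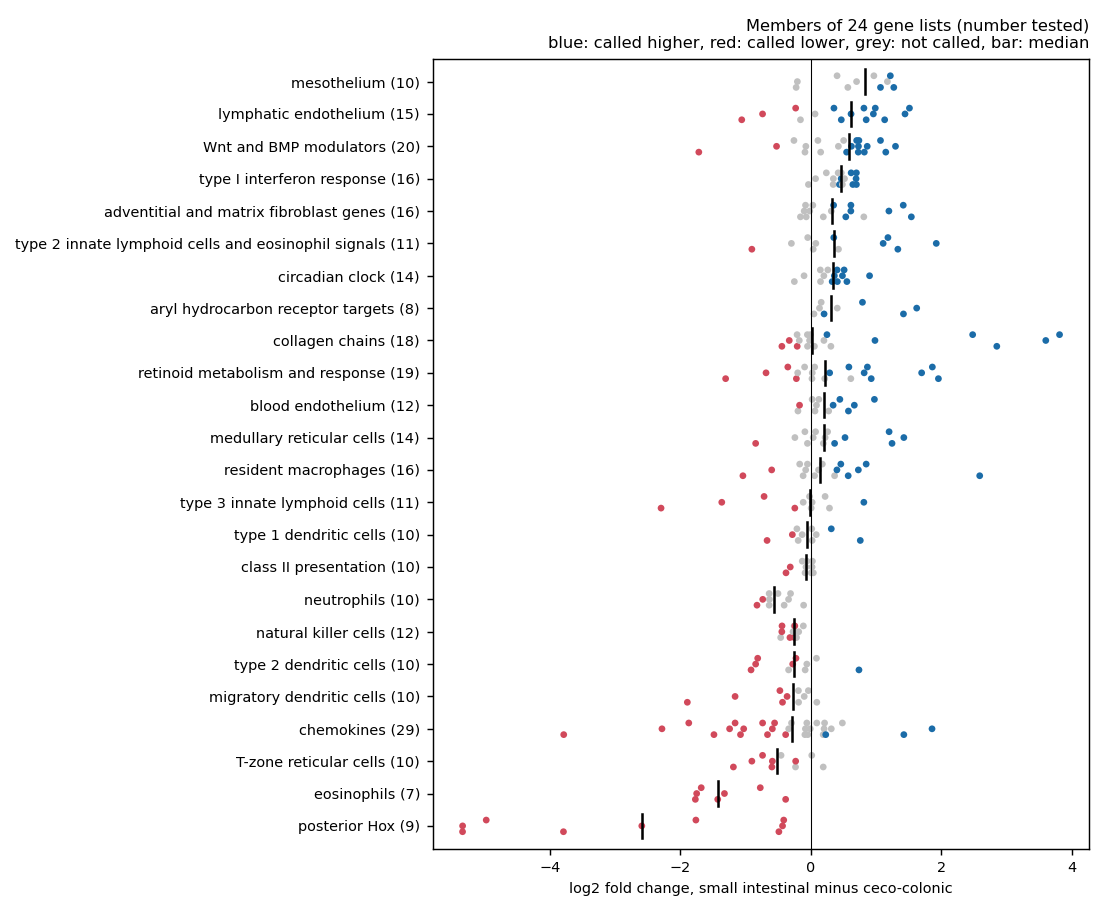
Log2 fold change of small intestinal minus ceco-colonic nodes for the members of 24 gene lists, with 1 point per gene tested and a bar for the list's median. The 9 posterior Hox and 7 eosinophil genes lie wholly below 0, while the median of lymphatic endothelium is 0.62 and that of chemokines -0.30.

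Clock genes were higher in small intestinal nodes for 8 of 14 and lower for 0, with a median of 0.34. Among all genes 8.9% were called higher and 7.74% lower. Hlf, a clock output factor, was at 19.8 to 33.2 against 9.83 to 15.6 CPM (0.90 ± 0.11, adjusted p = 9.94e-06), Per3 at 39.8 to 55.7 against 26.2 to 34.6 CPM (0.55 ± 0.09, adjusted p = 0.000152), and Nr1d2, a repressor of the loop, at 60.5 to 83.2 against 48 to 56.6 CPM (0.40 ± 0.06, adjusted p = 3.35e-05). Summed over the list, ceco-colonic libraries had 429 to 525 CPM, small intestinal ones 532 to 703 CPM and inguinal ones 611 to 702 CPM. Without ceco-colonic library 2 the count was 5, and with the adipocyte level in the fit it was 3. The labels used here give no hour of dissection. Genes of the type I interferon response were called higher for 7 of 16 and lower for 0, but 0 of them at each site. Mx2 and Mx1, antiviral GTPases, were higher by 0.70 ± 0.17 and 0.47 ± 0.14 (adjusted p = 0.00775 and 0.0253). Leaving out ceco-colonic library 1, 2, 3 or 4 left 1, 1, 4 or 3 of these genes called, leaving out duodenal libraries 1 and 2 left 3, and the adipocyte level in the fit left 2.

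Lymphocyte genes were called higher for 3 of 17 and lower for 3 (1 lower with the adipocyte level in the fit). Among all genes 8.9% were called higher and 7.74% lower. Ms4a1, which encodes CD20, had 1.71, 2.93 and 4.24 CPM against 1.36, 1.57, 1.09 and 1.63 CPM (0.98 ± 0.11, adjusted p = 1.34e-06), stepping down from duodenal (3.96 CPM) to ileal nodes (1.85 CPM; adjusted p = 0.00014 among the 3). Cd3g, a chain of the T-cell receptor complex, was higher by 0.87, and Trac, the receptor's alpha constant region, lower by 0.48. Of 12 sterol synthesis genes 5 were higher and 0 lower, and with the adipocyte level in the fit 1 was. Of 12 cell division genes, 3 were lower and 0 higher, and with the adipocyte level in the fit 0 were. Of 10 genes of plasmacytoid dendritic cells, 3 were lower, 1 higher and 6 not called, with a median of 0.22, and with the adipocyte level in the fit 1 was lower. Spib, a factor of these cells, was at 123 to 160 against 182 to 192 CPM (-0.39 ± 0.06, adjusted p = 8.04e-05).

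The strict genes were also set beside the differences among sites and beside the inguinal node, as a description, since both use libraries that chose them. The duodenal, jejunal and ileal nodes differed from each other in 2615 genes (8.89%), and in 268 of the 1704 strict genes (15.7%). Against the inguinal node, 27.1% of all genes were called for small intestinal (14.1% higher, 13% lower) and 21% for ceco-colonic nodes (10.6% and 10.3%). Of the 907 strict genes higher in small intestinal nodes, 334 were called above the inguinal node in small intestinal nodes with no call for the ceco-colonic node, 263 were called below it in the ceco-colonic node with no call for the small intestinal ones, and 97 were called on opposite sides of it. A further 112 were above it and 60 below it in both, and 41 had neither call. Of the 797 strict genes lower in small intestinal nodes, 235 were called above the inguinal node in the ceco-colonic node alone, 222 were called below it in small intestinal nodes alone, and 55 lay on opposite sides. Another 144 were above and 108 below it in both, and 33 had neither call. These comparisons share libraries, and being chosen as higher or lower leaves some of the possible placements empty, so nothing is read from the counts.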

How the data were processed

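Whole lymph nodes of Rag1-/- mice were profiled by RNA-seq at 5 positions with 4 libraries each. The authors deposited gene-level estimated counts and transcript-level TPM, and kallisto, limma, edgeR, GRCm39 and mm10 appear in the submitters' processing notes, with roles and versions not given in the sources used here. Over 12483 genes, 99.67% of the deposited estimated counts were within 0.001 log2 units of length-scaled TPM computed from the transcript tables. Estimated counts were rounded and fitted with edgeR 4.0.16 (R 4.3.3) on all 20 libraries, with 1 mean per position, TMM scaling and filterByExpr (minimum count 10, minimum total 15), which left 29411 of 56258 genes. CPM are counts per M of the TMM-scaled library, and ± after a log2 fold change is its standard error. P-values were adjusted by Benjamini-Hochberg over all genes tested.

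The genes described and the gene lists were chosen with earlier results of these data known. Named genes were the 20 highest and 20 lowest fold changes at a mean of at least 5 CPM in the higher group among genes called at each site without overlap, up to 3 per list by adjusted p, and a fixed few. Hoxa11, Hoxb9, Hoxd9, Hoxd10, Isl1, Hand2, Gata6, Reln, Prox1, Ccl20, Cxcl5, Ccl19, Ccl21a, Timd4, Stra6, Il22, Msln, Upk3b, Pdpn and Ahr were named after their values were seen. On simulated counts for this comparison with 29411 genes, 73% of 100 genes changed by 1.5-fold and 97% of 100 changed by 2-fold were recovered, and 7.61% of calls were false. Changes were put only into genes above a floor on the mean level, equally at all small intestinal sites. No RNA of other tissues was simulated. The recovery therefore does not cover genes below that floor or sites that differ. The 27 alternatives changed the tool (DESeq2 1.42.0, limma-voom in limma 3.58.1), scaling, filter, counts, prior count, libraries, replicate block or adipocyte covariate. Promoters were taken from RefSeq (GRCm38.p6) and may differ from the build the authors used. Results for a few genes are not reported here.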

Additional observations from a re-analysis of the deposited data

Results flagged for a closer look

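In 39 of 564 groups of 4 libraries, 1 library of a named gene lay far from the other 3, and chance gives about 1 in 20 such groups. Jejunal library 2 accounted for 12 of them, and it also had the highest adipocyte level. Each value is in CPM, with the range of the other 3 libraries in brackets. In ceco-colonic library 2 these were Ccl21a at 3960 (3230 to 3300). In ceco-colonic library 3 these were Ccl17 at 25.9 (37.1 to 38.2). In ceco-colonic library 4 these were Cyp26b1 at 33.2 (19.4 to 20.8). In duodenal library 1 these were Il12b at 40.5 (27.8 to 29), Bmp5 at 0.437 (0.884 to 0.97) and Prg2 at 2.43 (1.18 to 1.24). In duodenal library 2 these were Trac at 1.48 (1.69 to 1.7). In duodenal library 3 these were Meis2 at 33.9 (24.2 to 25), Kdr at 298 (226 to 232), Nqo1 at 6.14 (4.4 to 4.45), Hoxd10 at 2.6 (1.5 to 1.66) and Gata6 at 29.5 (20.5 to 20.6). The same library had Reln at 49 (27.3 to 28.7) and Sntg2 at 1.84 (1.35 to 1.41). In ileal library 1 these were Spib at 140 (157 to 159) and Sntg2 at 1.15 (1.35 to 1.37). In ileal library 2 these were Mmp3 at 26.4 (7.46 to 10.6), Meis2 at 27.3 (32.6 to 33.5), Flt4 at 149 (182 to 187), Nkx2-3 at 20.1 (22.6 to 22.8) and Upk3b at 2.3 (0.986 to 1.1). In ileal library 4 these were Il12b at 32.4 (25.2 to 26), Glycam1 at 68.1 (136 to 141) and Ccl19 at 208 (277 to 290). In jejunal library 1 these were Pnlip at 13.2 (0.433 to 0.676). In jejunal library 2 these were Col6a6 at 47.1 (28.5 to 31.5), Clec4g at 32.7 (27 to 27.6), Glp2r at 6.14 (9.73 to 10.3), Kirrel3 at 5.1 (5.82 to 5.96) and Grem1 at 45.8 (83.7 to 88). The same library had Bst1 at 15.3 (26.9 to 28.2), Madcam1 at 33.3 (53 to 55.6), Per3 at 55.7 (43.6 to 44.6), Plin1 at 172 (58.5 to 62.6) and Cfd at 742 (215 to 266). The same library had Hoxc8 at 14.2 (10.8 to 11.4) and Upk3b at 3.09 (0 to 0.0397). In jejunal library 4 these were Dpt at 93.4 (102 to 103) and Rspo1 at 9.83 (8.16 to 8.3).

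For 55 named genes the difference from the ceco-colonic node was itself different among duodenal, jejunal and ileal nodes (edgeR quasi-likelihood F-test among the 3 sites, adjusted p under 0.05). The smallest adjusted p were those of Hoxc9 8.92e-09, Hoxa9 5.69e-07, Hoxa10 1.3e-06, Hoxc10 4.7e-06, Ms4a1 0.00014, Hoxc8 0.000479, Hoxd9 0.000685, Sox9 0.000688, Pnlip 0.00078 and Irx1 0.000799. Next in order came Ccl20 0.000851. Larger adjusted p were those of Msr1 0.00124, Rspo3 0.00144, Cldn5 0.00144, Tnfsf4 0.00148, Il22 0.00153, Cx3cl1 0.00156, Hoxd10 0.00195, Cyp1a1 0.00198, Cyp1b1 0.00225 and Tbx18 0.00323. Next in order came Cxcl13 0.00333, Folr2 0.00349, Isl1 0.00355, Marco 0.00357, Lyve1 0.00372, Col24a1 0.00391, Stab2 0.00393, Gzmc 0.00408, Apod 0.00448 and Hand2 0.00471. Next in order came Cyp4b1 0.00475. Above these came Glp2r 0.00572, Glycam1 0.00578, Prox1 0.007, Kirrel3 0.00798, Hoxb9 0.00804, Flt4 0.00936, Ccl12 0.00998, Cd163 0.0107, P4ha3 0.0124 and Trem2 0.0156. Next in order came Col4a6 0.0157, Nqo1 0.0235, Cemip 0.0243, Gata4 0.027, Upk3b 0.0305, Cxcr2 0.0332, Ccl8 0.0344, Lrat 0.0355, Nr1d2 0.0364 and Alox15 0.0376. Next in order came Aldh1a2 0.0392, Kdr 0.0439 and Dpt 0.049.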

How the results depend on the processing

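Of 132 named genes called, 112 were called with the same sign in all 27 alternatives and 20 lost the call in at least 1, while 0 changed sign. Most were named for their calls or small adjusted p in these same libraries. Their stability was thus in part fixed by the choice and does not stand for all called genes. With the adipocyte level as a covariate 1299 genes were called higher and 1208 lower, 317 higher by at least 2-fold, 1291 and 1200 with 1 sign at the 3 sites, and 460 and 356 at each site. Leaving out each library in turn gave 1896 to 2914 genes higher, 1680 to 2531 lower, 491 to 713 and 339 to 386 by at least 2-fold, 1867 to 2844 and 1668 to 2483 with 1 sign, and 674 to 978 and 605 to 840 at each site. With only the 16 gut libraries in the fit, 748 genes higher and 719 lower were called at each site. Uncalled genes changed sign in places. Without 1 library, Glycam1 ran from -0.0682 to 0.173, Rag2 from -0.0271 to 0.231, Nkx2-3 from -0.0389 to 0.00524, Msln from -0.348 to 0.0272 and Upk3b from -2.04 to 0.342. Glycam1 was at -0.0168 with limma-voom, Aldh1a2 at -0.023 and Rag2 at -0.0308 with the adipocyte covariate, and Upk3b at 1.61 with the 12 libraries as 1 group and at 0.11 with a prior count of 2. Uncalled above, Upk3b was called lower without jejunal replicate 2 (log2 fold change -2.04, adjusted p = 0.0351). Cyp26b1, also uncalled above, was called higher with the replicate block (adjusted p = 0.00904). The cause was not tested.

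With the replicate number as a block 2871 genes were higher and 2704 lower, 1027 and 964 at each site. Same-numbered libraries of different positions had correlations of -0.0863 to 0.357 (median 0.0852) over 24 pairs, 11 of them over 0.1, against a median of -0.0294 and 8 of 72 over 0.1 for different numbers. Of 16 libraries, 9 correlated best with their own number. This hints at pairing in part, but not every same-number pair was over 0.1 and the labels tie the numbers to no animal, so the block was kept as an alternative. Pancreatic and smooth muscle RNA in duodenal libraries and adipocyte RNA limit what the mean comparison can show, and 4 libraries per position limit its precision.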
